A study of Homo sapiens with 21 samples.

Results

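The genes described here are the ERBB receptors with an adaptor, ligands and a feedback inhibitor, in cells of the breast cancer line MDA-MB-453. The 10 members were chosen by name: the receptors ERBB2, ERBB3, ERBB4 and EGFR, the adaptor GRB7, the ligands AREG, EREG, HBEGF and TGFA, and the inhibitor ERRFI1. Each had 1 row among the 58735 genes measured, and 6 of the 10 passed a filter on low values. RNA-seq of mRNA captured by its poly-A tail was analysed for 21 libraries, 3 in each of 7 groups: untreated control, 10 mM calcium, 10 μM cadmium, 5 μM GSK4716 (an agonist of the nuclear receptor ESRRB), 10 μM DES (diethylstilbestrol, used as an antagonist of ESRRB), DES with calcium, and DES with cadmium. Treatments lasted 24 h, and in the combined groups DES was given 3 h ahead of the metal. The labels place the calcium and GSK4716 treatments in medium free of serum and the cadmium treatment in 1% charcoal-stripped serum, with a single control group, so that medium and treatment cannot be told apart for at least 1 of them. GSK4716 and DES were dissolved in ethanol, and the labels do not say that the control received it, so vehicle and treatment cannot be told apart either. The groups asked whether the metals act through ESRRB, which the antagonist would block. ESRRB mRNA itself was at 0.0261, 0.0878 and 0.0408 FPKM in the control libraries, or 5, 11 and 4 fragments. In untreated cells of this line the paper reports ESRRB protein by immunofluorescence.

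ERBB receptors are cell-surface tyrosine kinases that work in pairs. A ligand such as AREG (amphiregulin), HBEGF, TGFA or EREG is cut from the cell surface and binds EGFR, and HBEGF and EREG also bind ERBB4, whereas ERBB2 has no known ligand of its own and acts as the partner of the others, with ERBB3 in particular in breast cancer cells. The paired kinases recruit adaptors and start the RAS-MAPK and PI3K pathways, and ERRFI1 (also called MIG6), a protein made in response to the signal, binds the kinase domains of EGFR and ERBB2 and inhibits them.

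Expression is given as FPKM, which takes gene length and library size into account. The smallest library had 14435925 fragments assigned to genes and the largest 28424805 (median 18314738). All 10 luminal epithelial markers examined were above a mean of 0.5 FPKM, with sums of 1848 to 5650 FPKM per library and XBP1 the highest at a mean of 750 FPKM. Of 4 leukocyte and 3 endothelial markers, 0 reached a mean of 0.5 FPKM over the 21 libraries. PTPRC and CD3E were below 0.1, as were PECAM1, VWF and CDH5. Of 5 fibroblast markers only COL1A1 exceeded 0.5, at 14.8 FPKM, while COL1A2, COL3A1, PDGFRB and DCN were each below 0.1. Of 5 basal markers only KRT17 did, at 0.973 FPKM. Means over all libraries hide differences between groups. The basal marker KRT17 was at 0.0494, 0.0907 and 0.0387 FPKM in the control and at 1.99, 8.10 and 3.67 FPKM with calcium, without overlap. The macrophage marker CD68 had a mean of 0.0164 FPKM in the control, 0.516 FPKM with DES and 0.684 FPKM under DES plus calcium. These values are given as a description of the libraries. The libraries of some groups stood apart from each other. The median absolute log2 difference between 2 libraries of a group was 0.184 to 0.319 in the control and 0.235 to 0.268 with GSK4716. It was 0.295 to 0.412 with calcium, 0.314 to 0.512 with cadmium, 0.300 to 0.534 with DES and 0.299 to 0.368 under DES plus calcium. The widest were 0.773 between replicates 1 and 2 and 0.662 between replicates 1 and 3 of DES with cadmium. Replicate 1 of that group held 1433 FPKM of the metallothionein MT1E, a gene induced by cadmium, against 97.2 and 444 in the other 2. HMOX1, a gene of the oxidative stress response, was at 349 FPKM in control replicate 3 against 11.6 and 5.20 in replicates 1 and 2. It was also highest in replicate 3 with GSK4716 (1035 against 169 and 49.7) and with cadmium (2453 against 196 and 816). In the calcium group and the groups with DES, replicate 3 was not the highest. These check genes were chosen after values had been seen.

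ERBB2 (chr17:39687914-39730426, plus strand) was the most abundant member in the control. It measured 116, 100 and 162 FPKM in the control libraries, a mean of 126 ± 32.1 (SD, n = 3) that ranked 198 among 19951 protein-coding genes. With calcium it was 168, 135 and 114, with cadmium 121, 100 and 99.4, and with GSK4716 123, 210 and 157 FPKM. Under DES it was 117, 124 and 118 FPKM, under DES plus calcium 119, 109 and 97.2, and under DES plus cadmium 125, 136 and 110. Each treated group overlapped the control. The group means ran from 107 FPKM with cadmium to 163 FPKM with GSK4716, and the GSK4716 libraries lay above those of cadmium and of DES plus calcium, groups that were not compared with it. ERBB2 was called in none of the 8 pairwise comparisons or the 2 interactions as tested here, with 95% intervals of the log2 fold change from -0.42 to 0.72 for calcium and from -0.72 to 0.30 for cadmium against the control. A member was called when its p-value from limma on log2(FPKM + 0.1), adjusted by the Benjamini-Hochberg method over 14686 genes, was under 0.05. ERBB2 shares 8884 bases with PGAP3 and 1931 bases with MIEN1 on the opposite strand, and since the sources differ on whether libraries kept the strand, fragments in these stretches cannot be assigned with certainty.

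ERBB3 (chr12:56076799-56103505, plus strand), the kinase-poor receptor that carries docking sites for PI3K, was next among the receptors at 40.9, 31.4 and 47.1 FPKM in the control. It was 49.8, 36.9 and 52.9 FPKM with calcium, 29.0, 20.5 and 12.2 with cadmium, and 53.8, 65.3 and 54.8 with GSK4716. DES libraries held 38.6, 33.7 and 29.9 FPKM, those of DES plus calcium 33.8, 34.2 and 28.5, and those of DES plus cadmium 52.8, 30.1 and 31.8. All 3 cadmium libraries lay below all 3 control libraries, and all 3 GSK4716 libraries lay above them. Neither difference passed the test: the log2 fold change for cadmium was -1.02 ± 0.33 (SE, adjusted p = 0.136), and for GSK4716 it was 0.56 ± 0.17 (adjusted p = 0.220). With all 7 groups in one fit, the cadmium difference had an adjusted p of 0.0315, and over its 13 alternatives the adjusted p ranged from 0.0315 to 0.328. In the presence of DES the cadmium difference was 0.13 ± 0.27 relative to DES alone, and the interaction of cadmium with DES, the change of a metal's effect when DES was present, was 1.14 (adjusted p = 0.209).

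**Figure D1:**
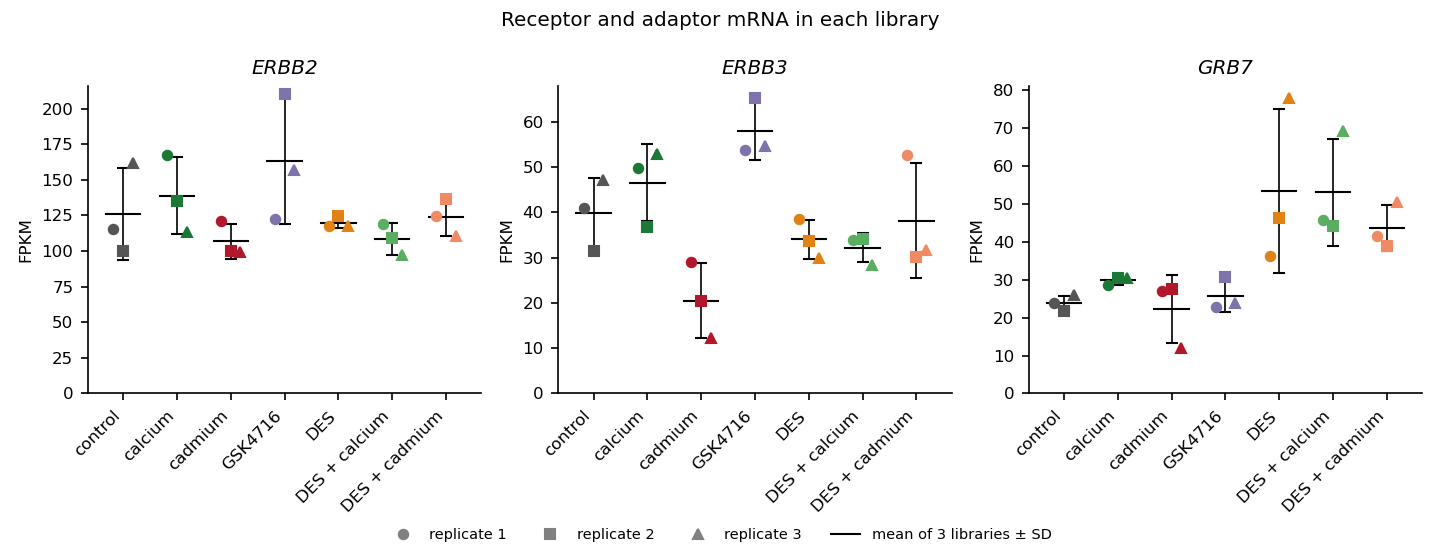
FPKM of ERBB2, ERBB3 and GRB7 (vertical axes, from 0) in each of the 21 libraries, by group on the horizontal axes. Symbols are replicates, lines with bars are the mean ± SD of 3 libraries. ERBB2 groups overlap the control, the 3 cadmium libraries for ERBB3 sit between 12.2 and 29.0 FPKM, below the control, and every library with DES holds more GRB7 than the control libraries.

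EGFR and ERBB4 were near the lower limit of these libraries and did not pass the filter of a mean of 0.5 FPKM over the 21 libraries. EGFR, the receptor that AREG, TGFA and HBEGF bind, was at 0.326, 0.382 and 0.208 FPKM in the control, which corresponds to 132, 101 and 43 fragments. It was at 0.390, 0.534 and 0.703 FPKM with calcium, above all 3 control libraries. In the other groups EGFR ranged from 0.124 to 0.312 FPKM. ERBB4, which binds neuregulins and HBEGF, was at 0.0927, 0.0618 and 0.0372 FPKM in the control and at 0.199, 0.619 and 0.547 FPKM with cadmium, or 47, 164 and 117 fragments. The cadmium libraries lay above the control libraries, and with DES and cadmium ERBB4 was back at 0, 0.0333 and 0.0677 FPKM. Read from a fit without the filter, the log2 fold change was 0.66 ± 0.46 for EGFR with calcium (adjusted p = 0.639) and 1.67 ± 0.54 for ERBB4 with cadmium (adjusted p = 0.241), so neither passed the test.

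**Figure D2:**
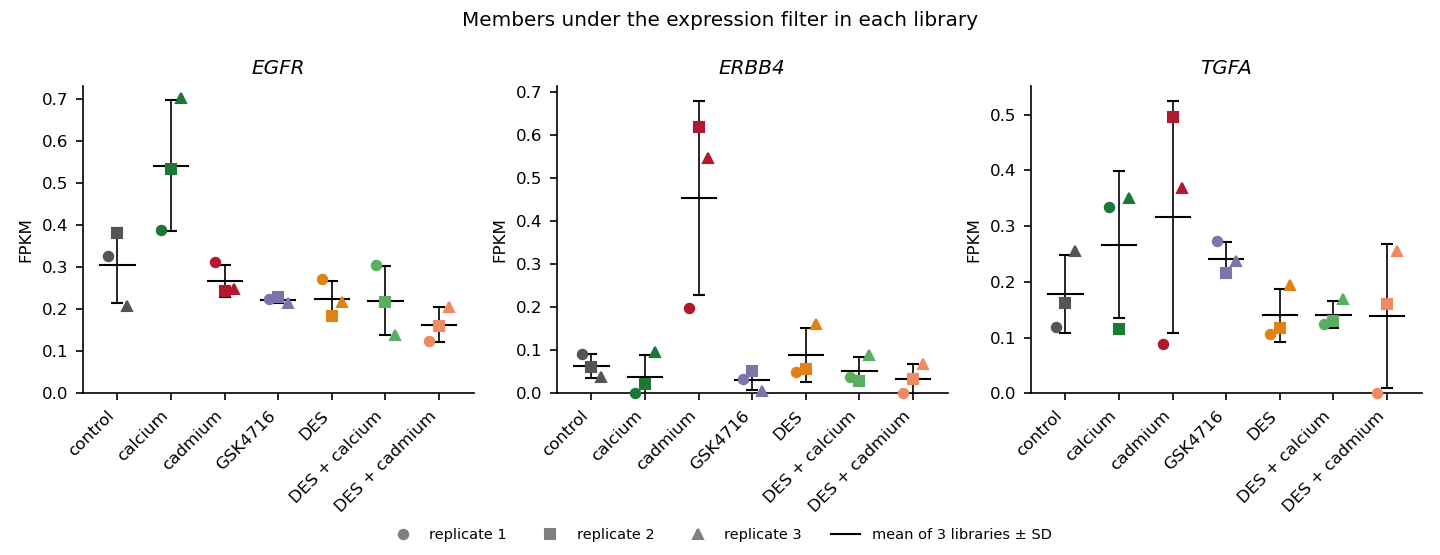
FPKM of EGFR, ERBB4 and TGFA (vertical axes, from 0) in each library, by group. Symbols are replicates, lines with bars are the mean ± SD of 3 libraries. The ERBB4 values with cadmium (0.199, 0.619 and 0.547 FPKM) and the EGFR values with calcium (0.390 to 0.703 FPKM) lie above the control libraries, and neither passed the test.

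GRB7 (chr17:39737927-39747291, plus strand), an adaptor that binds phosphorylated ERBB2 and ERBB3 and whose gene lies 50.0 kb from the start of ERBB2, was at 23.8, 21.8 and 25.8 FPKM in the control. With calcium it was 28.5, 30.4 and 30.5, with cadmium 27.1, 27.6 and 12.0, and with GSK4716 22.9, 30.6 and 23.8 FPKM. DES libraries held 36.1, 46.1 and 77.7 FPKM, those of DES plus calcium 45.6, 44.1 and 69.2, and those of DES plus cadmium 41.5, 38.8 and 50.4. The 9 libraries with DES were all above the 12 libraries without it, of which the highest held 30.6 FPKM. The share of all genes that separate in this way was not counted. DES against control alone left 48.8% of all genes without overlap (25.9% above). GRB7 rose with DES by a log2 fold change of 1.09 ± 0.28 (SE, adjusted p = 0.0266) against the control, and by 0.80 ± 0.20 (adjusted p = 0.0222) when DES with calcium was compared with calcium. Against cadmium, DES with cadmium was higher by 1.05 (adjusted p = 0.103), and with all 7 groups in one fit the adjusted p was 0.0105, in a range of 0.0105 to 0.265 over 13 alternatives. The DES call was lost without control replicate 1, 2 or 3 (adjusted p = 0.0838, 0.0916 and 0.0620), without DES replicate 2 (0.0679), without the filter (0.0519) and with scaling by total fragments (0.0656), in a range of 0.0102 to 0.0916 over 13 alternatives. With each of those 4 libraries left out in turn the log2 fold change was 1.09, 1.03, 1.15 and 1.15, close to that with all libraries. It was 1.09 without the filter and 0.91 with scaling by total fragments. The call against calcium was lost without calcium replicate 1, 2 or 3 (adjusted p = 0.0685, 0.0605 and 0.0541) and with scaling by total fragments (0.0708), in a range of 0.0109 to 0.0708, at log2 fold changes of 0.76, 0.81, 0.81 and 0.60. The calcium libraries were also all above the control libraries (log2 fold change 0.33, adjusted p = 0.128). Mitochondrial protein-coding transcripts took 6.83 ± 0.326% (SD, n = 3) of fragments in the control, 2.11 ± 0.371% under DES, 2.36 ± 0.329% under DES plus calcium and 1.97 ± 1.43% under DES plus cadmium. Mitochondrial rRNA went the other way, at 1.06 ± 0.302%, 2.10 ± 0.385%, 2.33 ± 0.453% and 1.49 ± 0.283% in the same groups. The part of either in the differences with DES was not tested.

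Of 13 chromosome 17 genes listed around ERBB2 and GRB7, 9 were tested, and these did not move as a block with DES. Of the 9, 1 was called higher against the control (ORMDL3, 1.08 ± 0.15 SE) and 3 lower (MED1, -0.79; TCAP, -1.36; PGAP3, -0.58), with a median log2 fold change of -0.15 beside 0.05 over all genes tested, of which 29.6% were called. DES with calcium against calcium had 2 higher, ORMDL3 (1.03) and MIEN1 (1.02), and 3 lower, CDK12 (-0.86), PGAP3 (-0.68) and MED1 (-0.67). The median there was -0.67 beside -0.01, with 35.1% of all genes called. DES with cadmium against cadmium had 0 higher and 1 lower (median -0.50 beside -0.08, with 9.89% called). MIEN1, whose start lies 42.9 kb from that of ERBB2, on the side of GRB7, was at 66.6, 46.4 and 32.3 FPKM with DES against 27.6, 21.9 and 30.4 FPKM in the control (log2 fold change 0.81, adjusted p = 0.0647). PGAP3 shares 8884 bases and MIEN1 1931 bases with ERBB2 on the opposite strand, so their fragments there cannot be assigned with certainty either. Apart from them, fold changes of neighbouring genes still had either sign with DES, as for ORMDL3, MED1 and TCAP.

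**Figure D3:**
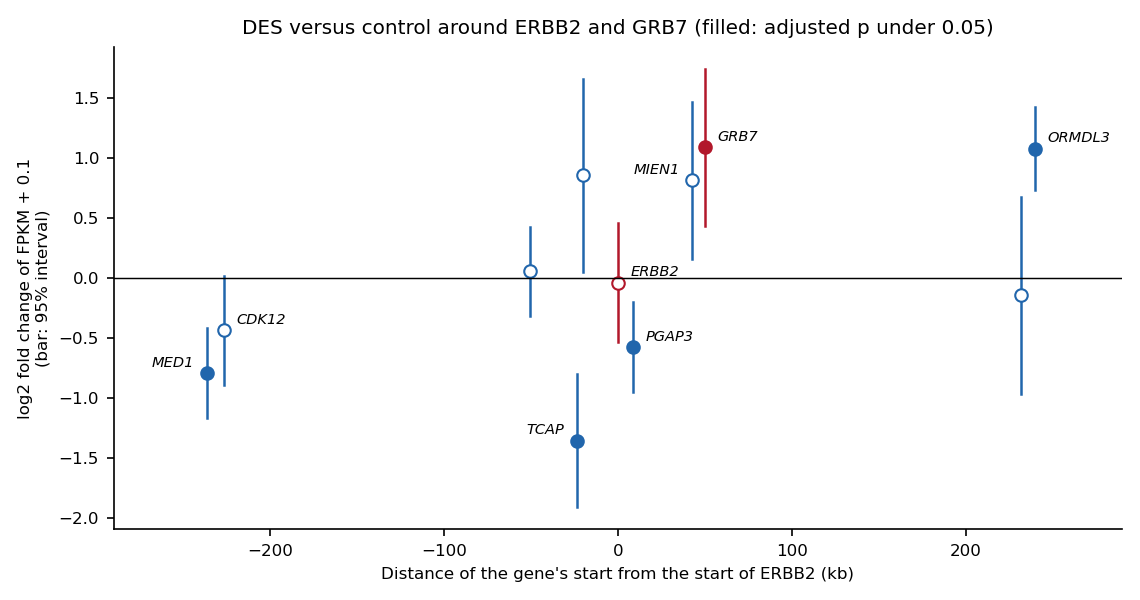
Log2 fold change of DES against control (vertical axis, log2 of FPKM + 0.1) for ERBB2, GRB7 (red) and the 9 tested neighbours (blue), by the distance in kb of each gene's start from that of ERBB2 (horizontal axis). Bars are 95% intervals and filled points passed the test. GRB7 (1.09) and ORMDL3 (1.08) were higher, and TCAP (-1.36), MED1 (-0.79) and PGAP3 (-0.58) lower.

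RefSeq windows of 250 bases upstream of the start (GRCh38.p14) were matched for 8 of the 10 members, 10 windows in all. They were searched on both strands for 3 motifs. The first, TGANTCA, takes in the AP-1 sites TGACTCA and TGAGTCA, but also TGAATCA and TGATTCA. The second, TGACGTCA, is the cAMP response element bound by CREB and ATF proteins. The third, TNAAGGTCA, is the response element of estrogen-related receptors. Of 35116 windows of this length, 6.57% held the first, 1.65% the second and 0.854% the third. The windows of AREG and ERRFI1 are shown because these 2 members were called in the interaction of calcium with DES. Capitals mark motif matches. The AREG window is chr4:74444886-74445135 on the plus strand and the ERRFI1 window is chr1:8026310-8026559 on the minus strand.
AREG: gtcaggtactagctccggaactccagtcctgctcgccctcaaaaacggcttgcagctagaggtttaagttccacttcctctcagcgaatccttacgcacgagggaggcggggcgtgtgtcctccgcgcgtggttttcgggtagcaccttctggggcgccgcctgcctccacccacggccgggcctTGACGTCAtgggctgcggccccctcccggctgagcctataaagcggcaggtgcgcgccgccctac
ERRFI1: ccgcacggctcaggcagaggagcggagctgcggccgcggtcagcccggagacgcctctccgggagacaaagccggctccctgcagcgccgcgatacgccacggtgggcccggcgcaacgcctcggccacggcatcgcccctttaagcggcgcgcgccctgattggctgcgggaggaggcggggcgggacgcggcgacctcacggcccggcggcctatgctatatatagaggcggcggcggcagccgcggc
The AREG window holds 1 TGACGTCA, which begins 65 bases before the start, and the ERRFI1 window holds none of the 3 motifs, like the HBEGF window. TNAAGGTCA was found in 0 of the 10 windows. TGANTCA was found in the ERBB2 window, as TGATTCA, which is not one of the AP-1 sites named above. It was also found in 1 of 2 EGFR windows, as TGAGTCA and TGACTCA. A match describes these letters in this stretch and no more.

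AREG (chr4:74445134-74455009, plus strand), the gene of amphiregulin, a ligand of EGFR that the mammary epithelium makes in response to estrogen, was at 0.507, 0.661 and 0.404 FPKM in the control, or 27, 23 and 11 fragments. With calcium it was at 9.57, 67.9 and 25.6 FPKM, or 352, 1956 and 945 fragments. With cadmium it was at 0.834, 2.48 and 1.92 FPKM and with GSK4716 at 0.549, 0.684 and 0.815 FPKM. All calcium and all cadmium libraries lay above the control, while GSK4716 overlapped it. AREG rose with calcium by a log2 fold change of 5.38 ± 0.68 (SE, adjusted p = 0.0149), or 41.7-fold on the scale of FPKM + 0.1, which ranked 15 from the top among the 14686 genes tested. The cadmium difference was 1.46 ± 0.43 (adjusted p = 0.117) and did not pass the test, but it did without cadmium replicate 1 (1.89, adjusted p = 0.0326, in a range of 0.0326 to 0.306 over 13 alternatives). The calcium libraries spread from 9.57 to 67.9 FPKM, more widely than those of any other group for this gene. The size of the rise therefore depends on which calcium libraries are included. In bulk RNA, a higher level in every cell and a larger share of cells with a high level cannot be told apart.

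With DES alone AREG was at 2.15, 3.27 and 8.83 FPKM, above the control. It rose by 2.73 ± 0.51 (SE, adjusted p = 0.00925). Under DES plus calcium it was at 2.73, 4.12 and 3.78 FPKM, and under DES plus cadmium at 2.11, 1.18 and 1.64 FPKM. DES with calcium therefore overlapped DES alone (log2 fold change -0.18, 95% interval -1.44 to 1.07) and lay below calcium alone (-2.84 ± 0.66, adjusted p = 0.0182). The interaction of calcium with DES was -5.56 ± 0.89 (adjusted p = 0.0100) and passed the test in each of 19 alternatives, with an adjusted p of at most 0.0328. The call against calcium was lost without calcium replicate 3, DES with calcium replicate 1 or DES with calcium replicate 3 (adjusted p = 0.0609, 0.0626 and 0.0511), in a range of 0.00112 to 0.0626 over 13 alternatives, at log2 fold changes of -2.84, -2.66 and -2.89. Because the calcium libraries spread widely, the size of this difference also depends on which of them are included. For cadmium the libraries with DES lay below DES alone (-1.26, adjusted p = 0.495), and the interaction was -2.72 (adjusted p = 0.0883).

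HBEGF (chr5:140332843-140346631, minus strand), a heparin-binding ligand of EGFR and ERBB4, was at 0.0923, 0.0471 and 0.201 FPKM in the control, or 9, 3 and 10 fragments. It passed the filter through the groups in which it was high, with calcium and with DES, so it had to differ among the groups. With calcium it was at 1.77, 4.11 and 1.85 FPKM, with cadmium at 0.255, 0.407 and 0.806, and with GSK4716 at 0.150, 0.149 and 0.348 FPKM. DES libraries held 0.820, 0.761 and 1.72 FPKM, those of DES plus calcium 0.837, 4.04 and 3.18, and those of DES plus cadmium 1.48, 0.430 and 1.70. The calcium, cadmium and DES groups each lay above the control. HBEGF rose with calcium by 3.61 ± 0.45 (SE, adjusted p = 0.0138) and with DES by 2.47 ± 0.50 (adjusted p = 0.0123), and the cadmium difference was 1.42 ± 0.48 (adjusted p = 0.140). In the fit without the filter, in which it was not selected by its level, HBEGF was called with calcium (adjusted p = 0.0273) and with DES (adjusted p = 0.0347). The calcium call was lost without control replicate 1 or control replicate 2 (adjusted p = 0.0735 and 0.0660, at 3.56 and 3.37), in a range of 0.00161 to 0.0735 over 13 alternatives. It was also lost with the replicate number as a block (adjusted p = 0.0616, at 3.61), although these libraries share only a number.

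Unlike AREG, HBEGF was about as high with DES and calcium as with calcium alone. The log2 fold change between these groups was -0.09, with a 95% interval of -1.58 to 1.40, which also holds large differences in either direction. DES with calcium differed from DES alone by 1.05 ± 0.64 (adjusted p = 0.507), and the interaction of calcium with DES was -2.56 (adjusted p = 0.106). Whether HBEGF and AREG differed in this respect was not tested. Replicate 1 of DES with calcium held 0.837 FPKM, inside the range of DES alone, and replicates 2 and 3 were above it.

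TGFA and EREG, ligands of the same receptors, were low throughout. TGFA ranged from 0 to 0.495 FPKM over the 21 libraries, with 0.118, 0.162 and 0.256 FPKM in the control. EREG, whose gene is a neighbour of AREG on chromosome 4, held at most 4 fragments in any library and 1 in the 3 control libraries together. It held 0 fragments in the 3 calcium libraries, in which AREG had 352 to 1956. Neither gene passed the filter, and neither was called in the fit without it.

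**Figure D4:**
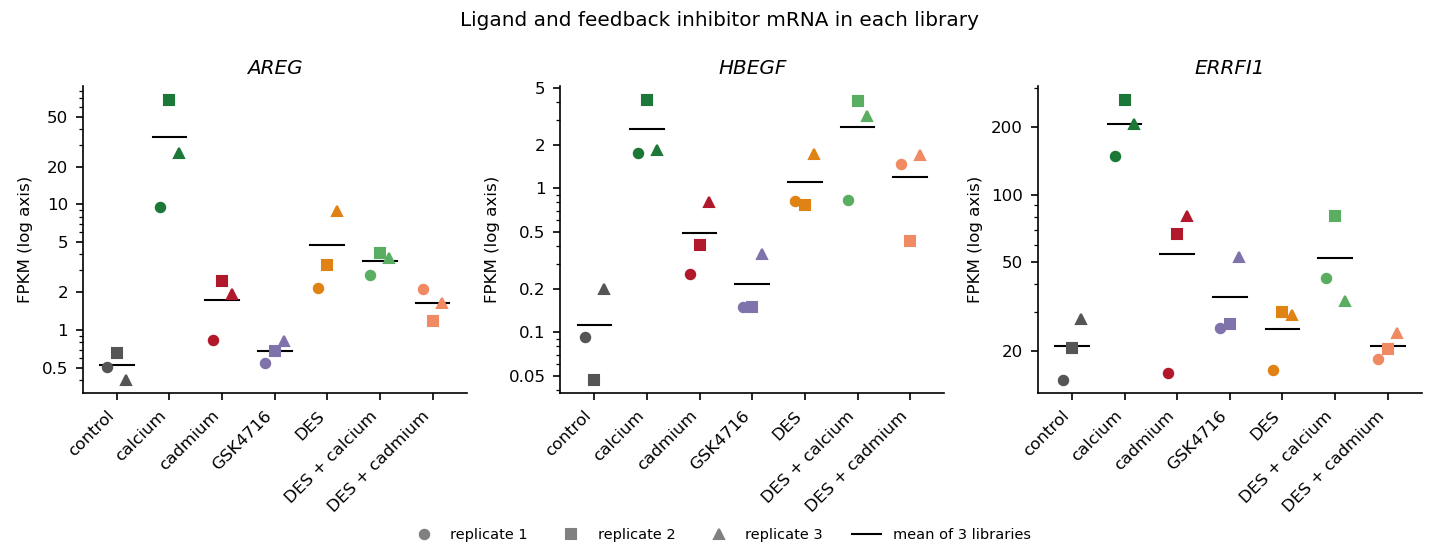
FPKM of AREG, HBEGF and ERRFI1 (vertical log axes) in each library, by group on the horizontal axes. Symbols are replicates and lines the mean of 3 libraries. Calcium libraries sit above the control for all 3 genes, and with DES and calcium AREG (2.73 to 4.12 FPKM) and ERRFI1 (33.7 to 80.4 FPKM) sit below calcium alone while HBEGF (0.837 to 4.04 FPKM) overlaps it.

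ERRFI1 (chr1:8004404-8026308, minus strand), the inhibitor of the kinase domain, was at 15.0, 20.8 and 27.9 FPKM in the control. With calcium it was at 149, 265 and 206 FPKM. With cadmium it was at 16.0, 66.6 and 80.5 FPKM and with GSK4716 at 25.5, 26.5 and 52.6 FPKM. All calcium libraries were far above the control, and cadmium replicate 1 lay within the control range while replicates 2 and 3 lay above it. ERRFI1 rose with calcium by 3.28 ± 0.30 (SE, adjusted p = 0.00951), or 9.74-fold on the scale of FPKM + 0.1, to a mean of 207 ± 57.8 FPKM (SD, n = 3), above the mean of 139 ± 27.1 FPKM of ERBB2 in the same libraries, although in calcium replicate 1 ERRFI1 (149 FPKM) was below ERBB2 (168 FPKM). The cadmium difference was 1.10 ± 0.63 (adjusted p = 0.309), and without cadmium replicate 1 it was 1.83 (adjusted p = 0.0326, in a range of 0.0326 to 0.573 over 13 alternatives).

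With DES alone ERRFI1 was at 16.5, 30.1 and 29.1 FPKM and overlapped the control (log2 fold change 0.24, adjusted p = 0.575). With DES and calcium it was at 42.4, 80.4 and 33.7 FPKM, above DES alone and below calcium alone in every library. It fell by 2.05 on the log2 scale relative to calcium (SE 0.36, adjusted p = 0.00786), and this call held in all 13 alternatives with an adjusted p of at most 0.0339. Relative to DES, the calcium difference was 0.99 ± 0.39 (adjusted p = 0.359). The interaction was -2.29 ± 0.51 (adjusted p = 0.0342). This interaction was lost in 10 of 19 alternatives, with adjusted p from 0.0163 to 0.112: without the filter (0.0802), with all 7 groups in one fit (0.112), without control replicate 1 or 2 (0.0883 and 0.0861), calcium replicate 2 or 3 (0.0750 and 0.0558), DES replicate 2 or 3 (0.0820 and 0.0812), and DES with calcium replicate 1 or 3 (0.0777 and 0.0684). In these 10 the interaction itself stayed between -2.03 and -2.30. With DES and cadmium ERRFI1 was at 18.4, 20.6 and 24.3 FPKM, inside the control range. The interaction of cadmium with DES was -1.32 (adjusted p = 0.356), and without cadmium replicate 1 it was -2.04 (adjusted p = 0.0421, in a range of 0.0421 to 0.599 over 19 alternatives).

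The members called can be read against all genes. HBEGF is among the 6 members tested through its high groups, so a count out of 6 is no measure of the members as a set. With calcium, AREG, HBEGF and ERRFI1 were called, all higher, and the same 3 were called without the filter, where all 10 members entered. This stands beside 7.12% of all genes tested (4.60% higher, 2.53% lower; 23.5% at an unadjusted p under 0.05). The groups did not overlap for 4 members, all above, beside 29.6% of all genes (16.0% above, 13.6% below). Without control replicate 1 or without control replicate 2 the count was 0, with adjusted p-values of 0.0560 to 0.0735 and 0.0532 to 0.0680 for these 3 genes. Their log2 fold changes were 5.37 and 5.54 for AREG, 3.56 and 3.37 for HBEGF and 3.06 and 3.29 for ERRFI1, close to those with all libraries, and the number of all genes called went from 1046 to 7 and 46. With DES, GRB7, AREG and HBEGF were called higher (AREG and HBEGF without the filter) beside 29.6% of all genes (16.7% higher, 12.9% lower; 43.2% unadjusted), and the same 3 lay above the control without overlap, beside 48.8% (25.9% above, 22.9% below). When DES with calcium was compared with calcium, 3 members were called, GRB7 higher and AREG and ERRFI1 lower, beside 35.1% of all genes (18.5% higher, 16.5% lower; 46.8% unadjusted). Groups did not overlap for 4 members, 1 above and 3 below, beside 50.8% (25.7% above, 25.1% below). Without calcium replicate 3 the count was 1, ERRFI1. In the interaction of calcium with DES, AREG and ERRFI1 were called, both lower, beside 3.63% of all genes (1.25% higher, 2.38% lower; 19.9% unadjusted).

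The other comparisons called no member. With cadmium 0 of 6 were called by limma, beside 0.150% of all genes (0.129% higher, 0.0204% lower), and 3 had an unadjusted p under 0.05, beside 25.9%. Cadmium and control did not overlap for 3 members, 2 above and 1 below, beside 34.4% (17.7% above, 16.7% below). With all 7 groups in one fit 1 was called, ERBB3, and without cadmium replicate 1 there were 2, AREG and ERRFI1. With GSK4716 0 of 6 were called by limma, beside 0% of all genes, and 1, ERBB3, had an unadjusted p under 0.05, beside 16.4%. It was also the 1 member without overlap, beside 22.1% (10.7% above, 11.5% below). For DES with calcium against DES the count was 0, beside 0.136% of all genes (0% higher, 0.136% lower), with 1 unadjusted p under 0.05 beside 13.2%, and 1 member lay above DES without overlap, beside 19.9% (7.84% above, 12.1% below). For DES with cadmium against DES it was 0, beside 0.266% (0.0272% higher, 0.238% lower), with 0 unadjusted beside 10.4%, and 1 member lay below DES, beside 16.2% (5.38% above, 10.9% below). With the replicate block the number of all genes called went from 20 and 39 to 0 in both. For DES with cadmium against cadmium it was 0, beside 9.89% of all genes (4.76% higher, 5.13% lower), with 2 unadjusted p under 0.05 beside 32.6%. These 2 lay above cadmium without overlap, beside 40.0% (18.6% above, 21.4% below), and with all 7 groups in one fit ERBB3 and GRB7 were called. In the interaction of cadmium with DES it was 0, beside 1.18% (0.238% higher, 0.940% lower), with 2 unadjusted p under 0.05 beside 18.5%, and 1, ERRFI1, without cadmium replicate 1. Limma-voom on the recovered fragments also called 0 members in each of these 6 comparisons. The comparisons share control or DES libraries.

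**Figure D5:**
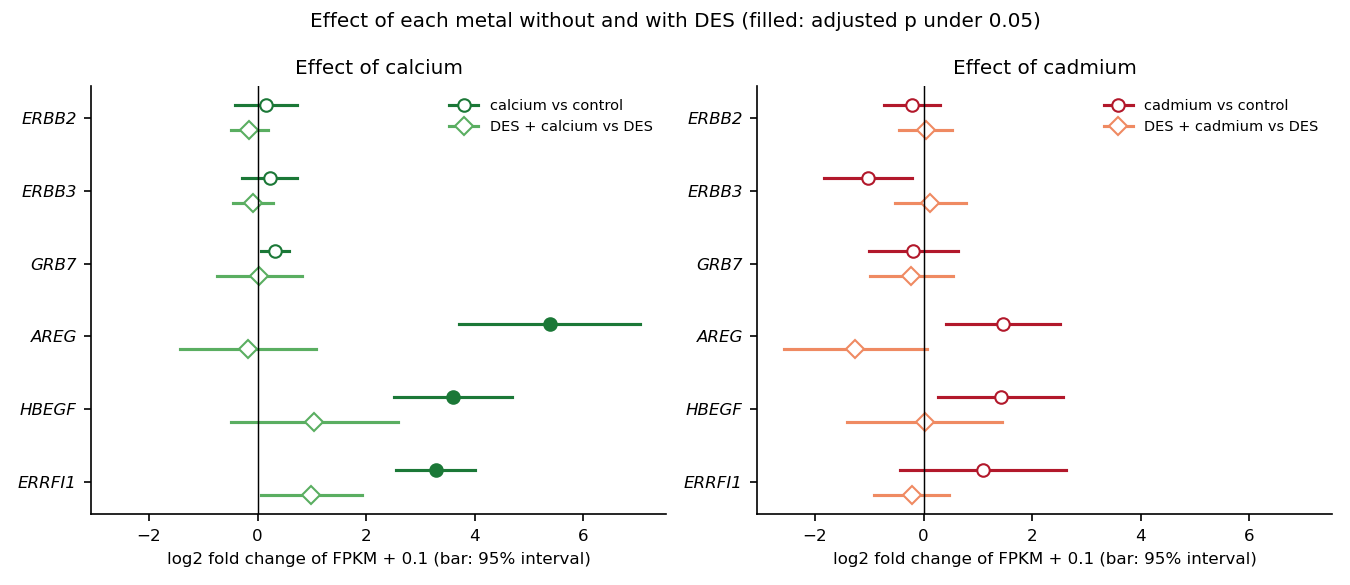
Log2 fold change (horizontal axes, log2 of FPKM + 0.1) of calcium (left) and cadmium (right) for the 6 members tested, against the control (circles) and, with DES present, against DES alone (diamonds). Bars are 95% intervals and filled points passed the test. AREG (5.38), HBEGF (3.61) and ERRFI1 (3.28) were higher with calcium than in the control, and the points with DES (-0.18, 1.05 and 0.99) lie nearer to 0.

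Other genes of the pathway were examined as lists. Of 7 further ERBB ligands, 2 passed the filter. EPGN did so only through its calcium group, with means of 2.30 FPKM with calcium and 0.445 FPKM over the other groups. Neither was called in any of the 10 comparisons. With calcium NRG3 lay below all control libraries, beside 13.6% of all genes. EPGN lay above them, which is not counted as a result, since the gene was selected by its calcium level.

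The list counts that follow stand beside the share of all genes called in the same comparison, which was 7.12% with calcium, 29.6% with DES, 35.1% for DES with calcium against calcium and 9.89% for DES with cadmium against cadmium.

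Of 25 adaptors and kinases downstream of the receptors, 23 were tested. With calcium, 2 were called higher and 0 lower, and the median log2 fold change was 0.06 beside -0.01 over all genes. GAB2, a docking protein that links receptors to PI3K and SHP2, was at 0.946, 0.923 and 1.64 FPKM in the control and 5.39, 6.97 and 8.75 FPKM with calcium (2.51 ± 0.30, adjusted p = 0.0126). With DES and calcium GAB2 was at 2.04, 3.69 and 1.61 FPKM, below calcium alone, and its interaction was -2.27 (adjusted p = 0.0352). With DES, 1 was called higher (HRAS, 0.87) and 4 lower (SOS1, -1.82; SOS2, -1.44; PIK3R1, -0.90; PIK3CB, -0.68), with a median of -0.04 beside 0.05. SOS1 and SOS2 are the exchange factors that load RAS with GTP. When DES with calcium was compared with calcium, 2 were higher and 6 lower, with a median of -0.29 beside -0.01, and when DES with cadmium was compared with cadmium, 1 was higher and 2 lower, with a median of 0.12 beside -0.08.

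Of 18 genes of receptor turnover and ligand shedding, 17 were tested. With calcium 0 were called by limma, and 4 had an unadjusted p under 0.05, beside 23.5% of all genes. The median was 0.27 beside -0.01, and 7 lay above and 1 below all control libraries, beside 16.0% and 13.6% of all genes. With DES 2 were higher and 5 lower, beside 29.6% of all genes called, with a median of -0.39 beside 0.05 over all genes. CBLC (1.25) and RNF41 (0.65) were higher, ubiquitin ligases of the receptors of which the latter acts on ERBB3, while CBL (-0.81), the ligase of EGFR, the phosphatases PTPN1 (-1.05) and PTPN11 (-0.63), SOCS4 (-1.12) and RHBDF2 (-0.75) were lower. When DES with calcium was compared with calcium, 0 were higher and 5 lower, among them ADAM17 (-1.15), the protease that releases AREG and HBEGF from the cell surface, and its partner RHBDF2 (-1.39), with a median of -0.48 beside -0.01. Against cadmium, DES with cadmium had 1 higher and 2 lower, with a median of -0.33 beside -0.08.

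Of 10 genes that report MAPK output, all were tested. With calcium 4 were called higher and 0 lower, with a median of 0.64 beside -0.01 over all genes. They were PHLDA1 (3.68 ± 0.38 SE), EPHA2 (1.74 ± 0.27), the ERK phosphatase DUSP4 (1.48 ± 0.21) and the inhibitor SPRY2 (1.26 ± 0.21). PHLDA1, at a mean of 0.178 FPKM in the control and 3.74 FPKM with calcium, passed the filter only through calcium, with a mean just under 0.5 over the other groups, so it had to differ. In the fit without the filter its calcium call held (adjusted p = 0.0154), while its DES call, its call for DES with calcium against calcium and its interaction did not (adjusted p = 0.191, 0.0843 and 0.0798). DUSP6, another ERK phosphatase, was at 53.2, 34.4 and 39.7 FPKM with calcium and 21.4, 37.8 and 23.6 FPKM in the control, and these groups overlapped. With DES 2 were higher, SPRY2 (1.09) and PHLDA1 (1.24, not called without the filter). In the same comparison 3 were lower, DUSP6 (-2.11), SPRY4 (-1.16) and EPHA4 (-1.16), with a median of -0.38 beside 0.05. Against calcium, DES with calcium had 0 higher and 4 lower (median -0.59 beside -0.01), and against cadmium, DES with cadmium had 0 higher and 2 lower (median -0.77 beside -0.08). DUSP6 was at 7.36, 5.41 and 5.80 FPKM under DES. It was at 9.80, 10.6 and 10.1 under DES plus calcium and 4.82, 2.87 and 5.84 under DES plus cadmium. All 9 libraries with DES were therefore below all 12 without it. How many of all genes do so was not counted, and DES against control alone left 22.9% of all genes below without overlap. The counts above and the list totals below include PHLDA1, which was selected by its calcium level. Only its calcium call, which held without the filter, is read as a result. Its other calls and its interaction of calcium with DES (-3.11) are not. With cadmium, with GSK4716, and with either metal in the presence of DES against DES, 0 genes of the 5 lists were called by limma. Leaving out control replicate 1 or control replicate 2 left 0 of the 6 list calls with calcium. Without control replicate 1, 7 of the 21 with DES were left, without replicate 1 of DES with calcium 9 of the 22 against calcium, and without any 1 of the 3 cadmium libraries or without replicate 3 of DES with cadmium 0 of the 9 for DES with cadmium against cadmium. In the same way the GAB2 and PHLDA1 interactions were both lost under 8 of 12 such omissions.

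The genes most like each tested member over the 21 libraries are given as a description, by Pearson correlation of log2(FPKM + 0.1) among 10109 protein-coding genes. The libraries share the treatment groups, so a gene that differed between groups in the same way ranks high. AREG was most like CYR61 (r = 0.959), GPRC5A (0.929) and C2CD4A (0.908). HBEGF was most like RGCC (0.935), SAT1 (0.927) and GEM (0.925), and ERRFI1 was most like SPNS2 (0.921) and KLF6 (0.919). GRB7 was most like NFYA (0.877), EWSR1 (0.875) and PNP (0.857). ERBB2 and ERBB3 shared PEX6 among their 3 nearest genes, with r = 0.783 and 0.860.

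These results have limits. There were 3 libraries in each group, 1 control group served treatments given in different media, and the calcium calls, though not the size of the fold changes, were lost without control replicate 1 or control replicate 2. AREG and HBEGF had 61 and 22 fragments in the control libraries together, which makes the size of their fold changes uncertain. With DES 29.6% of all genes tested were called against the control, and vehicle and treatment cannot be told apart there. Whether the differences with DES alone, that of AREG among them, act through ESRRB or through another target of DES was not tested. The same holds for the different response to calcium with DES. Levels of mRNA say nothing of protein, ligand release or receptor activity, none of which was measured.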

How the data were processed

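The labels and methods describe poly-A capture and paired-end reads of 150 bases. The authors' processing notes name HISAT2 2.0.5, featureCounts 1.5.0-p3 and GRCh38.p14, and the methods name DESeq2 and edgeR, which the authors used and which were not run here. A table of FPKM, 1 row a gene, was deposited together with gene lengths. FPKM multiplied by gene length gave whole fragments (within 0.02) for 100% of values. Library size used in the FPKM was 1.12 ± 0.0337 times the fragments on genes in the control and 0.862 ± 0.147 times with DES and cadmium (SD, n = 3), a further scaling between libraries. No library was a copy of another (any 2 had the same fragments in 4.97% of genes or fewer).

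Differences were tested in R 4.3.3 with limma 3.58.1 (lmFit, then eBayes with trend) on log2(FPKM + 0.1). The 14686 genes whose mean reached 0.5 FPKM were kept, each fit held just the groups it compared, and p-values were two-sided, adjusted by the Benjamini-Hochberg method at 0.05. Fold changes on this scale understate those of low genes. The labels do not say whether replicates were separate cultures, so p-values measure the spread between these libraries. The fit was tested on simulated data, and no result given here rests on that test. Python 3.11.15, pandas 2.3.3, numpy 2.4.6 and matplotlib 3.10.9 made tables and figures. All members were named, and of the 5 pathway lists any gene called in a pairwise comparison could be. The check genes MT1E and HMOX1 and ESRRB were named after their values were seen. The members and lists were chosen with earlier results of these data known.

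Alternatives were a pseudocount of 1, no filter, scaling by total fragments, median-ratio scaling, all 7 groups in one fit, the replicate number as a block (replicate block), limma-voom run on the fragments recovered, and each library left out. For the list genes they were added after seeing the data. Libraries of the same replicate number deviated together from their group means in 2 comparisons, with correlations of 0.132, 0.103 and 0.280 for calcium in the presence of DES and 0.472, 0.121 and 0.313 for cadmium in the presence of DES. There the number was taken to pair libraries, from the data and not from the labels.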

Additional observations from a re-analysis of the deposited data

Results flagged for a closer look

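The effect of calcium differed between cells with and without DES, by a test of the difference itself, for AREG, ERRFI1 and the listed gene GAB2, beside 533 of all genes tested (3.63%). The interaction was -5.56 for AREG, -2.29 for ERRFI1 and -2.27 for GAB2, on the log2 scale of FPKM + 0.1. The call held in all 19 alternatives for AREG and was lost in 10 for ERRFI1 and 11 for GAB2. The value for PHLDA1 was -3.11, but this gene passed the filter on low values only through its calcium group and was not called without the filter (adjusted p = 0.0798), so it is not counted. FOS, a gene chosen after its values were seen, was also called (-4.41), but unlike AREG and ERRFI1 it was not called for DES with calcium against calcium (-0.20, adjusted p = 0.743). Both FOS (4.21) and AREG (2.73) were higher with DES alone than in the control. A higher level with DES alone enters the interaction of each.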

How the results depend on the processing

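Among members called in a pairwise comparison or interaction, ERRFI1 for DES with calcium against calcium, AREG and HBEGF with DES, and the AREG interaction of calcium with DES kept their call in every alternative. The number of ERBB genes called was 1 (from 0) with cadmium and 2 (from 0) for DES with cadmium against cadmium when all 7 groups were in one fit, and 1 (from 2) for the interaction of calcium with DES in that fit and without the filter. Leaving out a library gave 0 to 3 genes called with calcium, 0 to 2 with cadmium, 2 to 3 with DES, 1 to 3 for DES with calcium against calcium, 1 to 2 for the interaction of calcium and 0 to 1 for that of cadmium. With the replicate block, 2 genes were called with calcium (without HBEGF, adjusted p = 0.0616 in a range of 0.00161 to 0.0735), 3 with DES, 3 for DES with calcium against calcium, 2 for the interaction of calcium with DES and 0 elsewhere, and it changed no other call of a member; outside the 2 comparisons of DES-treated groups the libraries share only a number. Differences of either sign occurred only where the gene was not called. With scaling by total fragments the log2 fold change was -0.10 (from 0.03) for GRB7 in DES with calcium against DES, -0.18 (0.04) for ERBB2, -0.0927 (0.13) for ERBB3 and -0.18 (0.02) for HBEGF in DES with cadmium against DES, and -0.13 (0.21) for ERBB2 and -0.31 (0.01) for AREG in DES with cadmium against cadmium. For the last, a pseudocount of 1 gave -0.0186. Median-ratio scaling gave 0.00902 (-0.03) for the GRB7 interaction of cadmium. Scaling by total fragments moved the median of all genes from -0.08 to -0.39 for DES with cadmium against cadmium, from -0.04 to -0.24 for DES with cadmium against DES, from -0.09 to -0.23 for the interaction of cadmium, from 0.00 to -0.13 for DES with calcium against DES, from -0.01 to -0.20 for DES with calcium against calcium, from -0.01 to -0.13 with calcium and from 0.05 to -0.12 with DES. With it ERBB2 (-0.54) and ERBB3 (-0.71) also passed the test as lower for DES with calcium against calcium, and ERBB3 did so with limma-voom and without calcium replicate 2. The count there was 4 with total-fragment scaling and 4 with limma-voom. Leaving out 1 library gave ranges that cross 0: GRB7 -0.40 to 0.20 with cadmium, -0.0259 to 0.18 with GSK4716, -0.21 to 0.34 for DES with calcium against DES, -0.47 to 0.0837 for DES with cadmium against DES, -0.53 to 0.0166 for the interaction of calcium and -0.43 to 0.28 for that of cadmium; ERBB2 -0.19 to 0.16 with DES and -0.0307 to 0.12 for DES with cadmium against DES; ERBB3 -0.17 to 0.0150 and -0.13 to 0.27 for DES with calcium and with cadmium against DES; AREG -0.61 to 0.38 for DES with calcium against DES and -0.42 to 0.31 for DES with cadmium against cadmium; and HBEGF -0.30 to 0.58 for DES with cadmium against DES and -0.50 to 0.57 for DES with calcium against calcium. Over the alternatives, all genes called ranged from 7 to 1582 with calcium (1046 as tested), 1 to 1605 with cadmium (22), 0 to 79 with GSK4716 (0), 1930 to 5078 with DES (4340), 0 to 166 for DES with calcium against DES (20), 0 to 603 for DES with cadmium against DES (39), 3263 to 5750 for DES with calcium against calcium (5148), 0 to 5459 for DES with cadmium against cadmium (1453), 180 to 830 for the interaction of calcium (533) and 15 to 802 for that of cadmium (173). Of the listed genes called, 2 of 6 with calcium, 11 of 21 with DES, 18 of 22 for DES with calcium against calcium, 0 of 9 for DES with cadmium against cadmium and 0 of 2 for the interaction of calcium kept their call under all 7 settings that used every library. The cause of these changes was not tested. HBEGF in the control rests on 10 fragments or fewer in each library.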
